A study of Mus musculus with 4 samples.

Results

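The dual specificity MAP kinase phosphatases are enzymes that switch off MAP kinases, and 8 of their genes were read in sorted mouse CD4+ T cells: Dusp1, Dusp2, Dusp4, Dusp5, Dusp6, Dusp7, Dusp10 and Dusp16. The members are all 12 probe sets that the platform annotation assigns to exactly 1 of these 8 genes, out of 34945 probe sets of 1 gene and 18193 genes on the array. They were chosen by name and not by their values. All 8 genes passed the filter on low values, and all 8 reached the filter intensity of 32.5 in each of the 4 arrays, so none passed through a single population. The 2 probe sets left out by the filter, of Dusp7 and Dusp16, read no higher than 16.9 in any array.

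Of the 4 populations, 2 expressed Foxp3 (CD25hi Foxp3+ and CD25lo Foxp3+) and the other two did not (CD25+ Foxp3- and CD25- Foxp3-). Each was read on 1 Affymetrix Mouse Genome 430 2.0 array. All came from 25 male Foxp3-GFP knock-in B6/129 F2 mice, 5 to 8 weeks old, whose spleen and lymph node cells were combined, cleared of cells bearing DX5, NK1.1, CD11b, B220 or CD8, and sorted on CD4, CD25 and the GFP that marks Foxp3. Foxp3 is the transcription factor that defines regulatory T (Treg) cells. CD25 is one chain of the receptor for IL-2. No agent was given, and the GFP knock-in allele is common to all 4 groups. With 1 array per population there is no replicate spread, so differences are given by size, in array intensity, and carry no test.

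MAP kinases are switched on by phosphorylation of a threonine and a tyrosine, and the dual specificity phosphatases remove both phosphates. In T cells the ERK branch is engaged by the T cell receptor through RAS and RAF, and several of these phosphatase genes are themselves induced by ERK, which makes them negative feedback regulators. The family falls into inducible nuclear enzymes (Dusp1, Dusp2, Dusp4, Dusp5), cytoplasmic enzymes that prefer ERK (Dusp6, Dusp7) and enzymes that prefer the stress kinases p38 and JNK (Dusp10, Dusp16).

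Median intensities of the 4 arrays lay between 15.03 and 15.6, and 39.7% to 40.3% of probe sets on each reached the filter intensity. The labels held for Foxp3, which read 1308 and 1117 in the Foxp3+ arrays, and 16.8 and 17.6, under the filter, in the Foxp3- arrays. The T cell markers Cd3d, Cd3e, Cd3g, Cd4, Cd5 and Cd28 reached the filter in all 4 arrays. Of the 9 measured markers of CD8 T and NK cells 7 were lower in both Foxp3+ arrays by a gap of at least 1.5-fold. The share of all 9625 measured genes was 1.93%, and 6 of the 9 reached the filter in all 4 arrays. The intensities of the 9 summed to 667 and 663 in the CD25hi and CD25lo Foxp3+ cells. They summed to 2166 in the CD25+ Foxp3- and 2433 in the CD25- Foxp3- cells. Between these last arrays, 2 of the 9 (Eomes and Ncr1) were at least 2-fold higher in the CD25+ Foxp3- cells, against 12.1% of measured genes. Another 3 (Gzma, Klrd1 and Prf1) were at least 2-fold lower there, against 6.43%. Listed B cell markers summed to 150.4 and 213 in the CD25hi and CD25lo Foxp3+ cells. They summed to 267 in the CD25+ Foxp3- and 281 in the CD25- Foxp3- cells. Myeloid markers summed to 1172 and 1446 in the Foxp3+ arrays, 1300 in the CD25+ Foxp3- and 1749 in the CD25- Foxp3- cells. Of 6 B cell markers with a probe set 4 reached the filter in some array, and of 10 myeloid markers 8 did. Cd79a, Pax5, Cd14 and Itgam were under it everywhere. Ms4a1, S100a9 and Tyrobp were lower in both Foxp3+ arrays by at least 1.5-fold, and no measured marker of either list was higher by that gap. Cell cycle markers summed to 22568 and 23513 in the Foxp3+ arrays, 40011 in the CD25+ Foxp3- and 11308 in the CD25- Foxp3- cells. Red cell and platelet markers summed to 72.0 and 145 in the CD25hi and CD25lo Foxp3+ cells. They summed to 367 in the CD25+ Foxp3- and 639 in the CD25- Foxp3- cells. That last array, where Dusp10 was highest, also had the highest CD8 T and NK, B cell and myeloid sums. Innate lymphoid markers summed to 585 and 1288 in the Foxp3+ arrays, 988 in the CD25+ Foxp3- and 207 in the CD25- Foxp3- cells. That last array, where Dusp4 was lowest, also had the lowest cell cycle sum. Zbtb16, a marker of NKT cells, stood at the floor on each of the Foxp3+ arrays and read 82.2 in the CD25+ Foxp3- and 17.1 in the CD25- Foxp3- cells. Heat shock genes summed to 52369 and 47544 in the Foxp3+ arrays, 77522 in the CD25+ Foxp3- and 52954 in the CD25- Foxp3- cells. The part of these cells and genes in the results below was not tested, and a smaller share of cells that hold a transcript cannot be told apart from less of it per cell.

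Dusp4, whose nuclear product acts on ERK, JNK and p38, had by far the widest spread of the 8 genes, 17.5-fold between its highest and lowest array. It read 2090 in the CD25hi Foxp3+ cells, 1840 in the CD25lo Foxp3+ cells, 830.4 in the CD25+ Foxp3- cells and 120 in the CD25- Foxp3- cells. The Foxp3+ arrays lay close together, CD25+ Foxp3- cells stood between, and CD25- Foxp3- cells were far below. Both Foxp3+ arrays exceeded both Foxp3- arrays, by a gap of 2.22-fold. Against CD25- Foxp3- cells alone, Dusp4 was 17.5-fold higher in the CD25hi Foxp3+, 15.4-fold in the CD25lo Foxp3+ and 6.95-fold in the CD25+ Foxp3- cells. These 3 comparisons share the CD25- Foxp3- array.

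**Figure D1:**
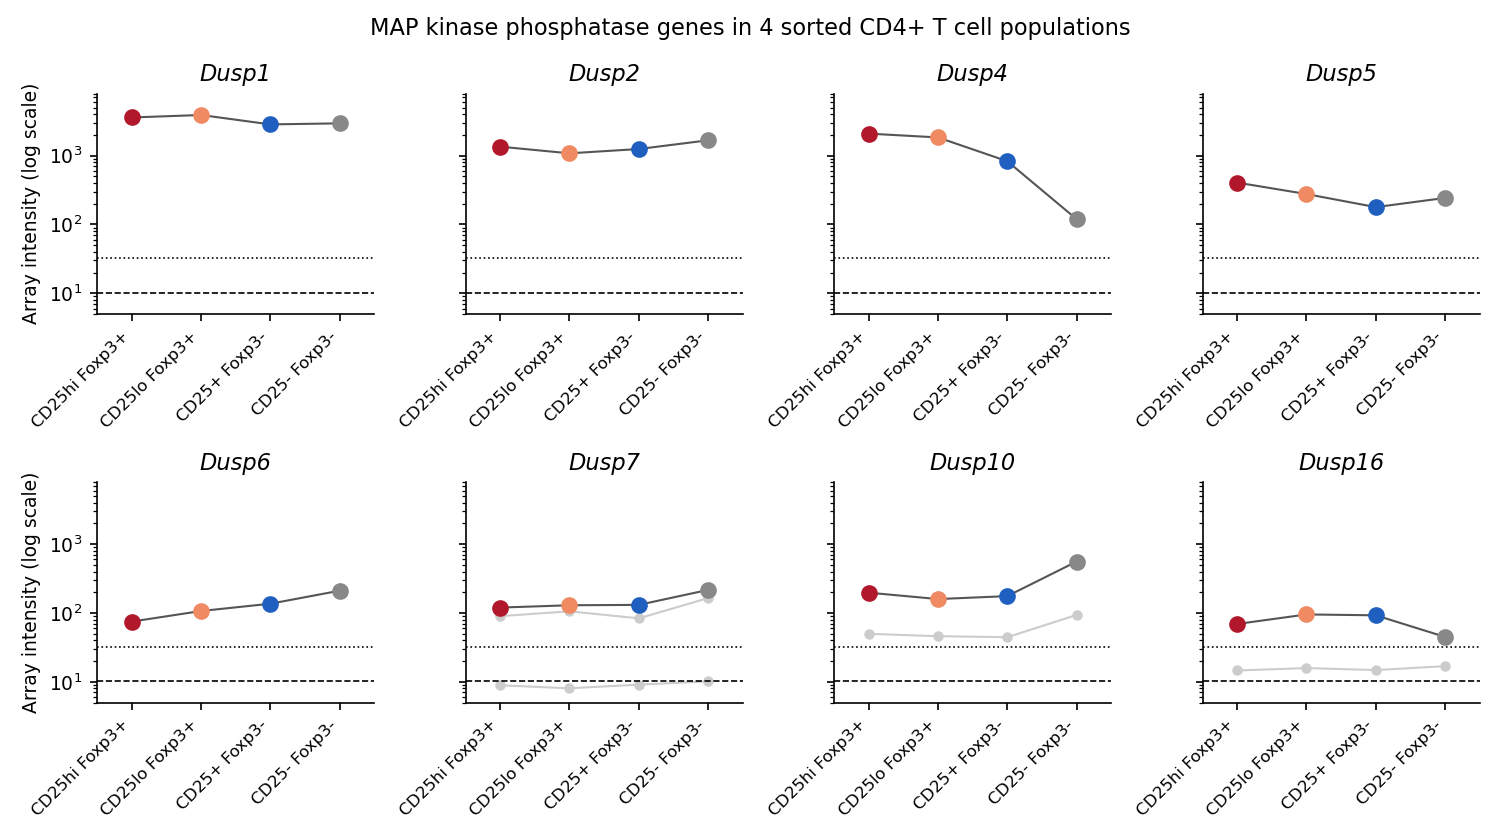
Array intensity on a log axis for the 8 genes in the 4 populations, 1 array each; coloured points are the probe set used, small grey points the gene's other probe sets, and lines only guide the eye. The dotted line is the filter intensity of 32.5 and the dashed line the floor of 10.1; Dusp4 drops to 120 in the CD25- Foxp3- cells, where Dusp10 has its highest value of 559.

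Among genes that were above the floor in both arrays, Dusp4 ranked 10th highest of 9516 in the CD25hi Foxp3+ over the CD25- Foxp3- cells and 19th of 9518 in the CD25lo Foxp3+ over the CD25- Foxp3- cells. In the CD25+ Foxp3- over the CD25- Foxp3- cells it ranked 81st of 9542. Against CD25+ Foxp3- cells, it was 2.52-fold higher in the CD25hi Foxp3+ and 2.22-fold higher in the CD25lo Foxp3+ cells, with ranks of 222 among 9551 genes and 344 among 9557. CD25hi and CD25lo Foxp3+ cells differed by 1.14-fold.

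Of the 6 listed Treg markers, 4 (Ctla4, Ikzf2, Il2ra and Nrp1) were also at least 2-fold higher in the CD25+ Foxp3- than in the CD25- Foxp3- cells, and Foxp3 and Gpr83 were not. Of all measured genes, 12.1% were higher in this comparison. Il2ra encodes CD25, and the cells were sorted on CD25 and on the GFP that marks Foxp3. The outcomes for Il2ra and Foxp3 were thus largely set by the sort. Ctla4, which encodes a receptor that restrains T cell activation, read 10132 and 12173 in the CD25hi and CD25lo Foxp3+ cells, 2682 in the CD25+ Foxp3- and 852 in the CD25- Foxp3- cells. Ikzf2, which encodes Helios, read 4891 and 7034 in the Foxp3+ arrays, 1917 in the CD25+ Foxp3- and 424 in the CD25- Foxp3- cells. Foxp3 itself read 16.8 in the CD25+ Foxp3- cells, no higher than the 17.6 of CD25- Foxp3- cells, and Gpr83, a G protein-coupled receptor, read 4426 and 1350 in the Foxp3+ arrays, 315 in the CD25+ Foxp3- and 323 in the CD25- Foxp3- cells.

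Dusp1, an early response gene whose product prefers p38 and JNK, was the flattest of the 8. It read 3589 in the CD25hi Foxp3+ and 3897 in the CD25lo Foxp3+ cells, against 2847 in the CD25+ Foxp3- and 2946 in the CD25- Foxp3- cells. Both Foxp3+ arrays were above both Foxp3- arrays, but the gap of 1.22-fold is short of the 1.5-fold rule, and the whole spread was 1.37-fold. Fos, another early response gene, read 9863 and 11346 in the Foxp3+ arrays against 7628 in the CD25+ Foxp3- and 9245 in the CD25- Foxp3- cells, which is a gap of 1.07-fold.

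Dusp2, a nuclear phosphatase first known from activated T cells, read 1351 in the CD25hi Foxp3+, 1082 in the CD25lo Foxp3+, 1249 in the CD25+ Foxp3- and 1672 in the CD25- Foxp3- cells. It was highest in the CD25- Foxp3- cells and lowest in the CD25lo Foxp3+ cells, 1.55-fold apart, and the Foxp3+ and Foxp3- arrays overlapped.

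Dusp5, the nuclear phosphatase that is selective for ERK, was highest in the CD25hi Foxp3+ cells. It read 406 there and 277 in the CD25lo Foxp3+ cells, against 179 in the CD25+ Foxp3- and 243 in the CD25- Foxp3- cells. The Foxp3+ arrays stood above the Foxp3- arrays by only 1.14-fold, since CD25lo Foxp3+ and CD25- Foxp3- cells lay close. Between CD25hi Foxp3+ and CD25+ Foxp3- cells the difference was 2.27-fold, which ranked 315th highest of 9551 genes.

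Dusp6, the cytoplasmic phosphatase selective for ERK and a standard readout of ERK activity, ran the other way. It read 74.97 in the CD25hi Foxp3+ and 106.9 in the CD25lo Foxp3+ cells, against 136 in the CD25+ Foxp3- and 211 in the CD25- Foxp3- cells. It was lowest in the CD25hi Foxp3+ and highest in the CD25- Foxp3- cells, and both Foxp3+ arrays lay below both Foxp3- arrays by a gap of 1.28-fold, short of the rule. Dusp6 was 2.81-fold lower in the CD25hi Foxp3+ and 1.97-fold lower in the CD25lo Foxp3+ cells than in the CD25- Foxp3- cells. In CD25hi Foxp3+ cells it was 1.82-fold lower than in the CD25+ Foxp3- cells.

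Dusp7, its close relative, read 119.9 in the CD25hi Foxp3+, 129.5 in the CD25lo Foxp3+ and 131 in the CD25+ Foxp3- cells, against 216 in the CD25- Foxp3- cells. The first 3 arrays lay within 1.09-fold of each other, and the CD25- Foxp3- array stood 1.65-fold to 1.81-fold above them. A second probe set had the same array on top, with 90.0, 105.8 and 83.6 in the CD25hi Foxp3+, CD25lo Foxp3+ and CD25+ Foxp3- cells and 165 in the CD25- Foxp3- cells.

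Dusp10, a phosphatase of JNK and p38, was lower in every population than in the CD25- Foxp3- cells. It read 197 in the CD25hi Foxp3+, 159 in the CD25lo Foxp3+ and 176 in the CD25+ Foxp3- cells, against 559 in the CD25- Foxp3- cells. The Foxp3+ and Foxp3- arrays overlapped, and CD25- Foxp3- cells alone stood apart. Dusp10 was 2.83-fold lower in the CD25hi Foxp3+, 3.51-fold lower in the CD25lo Foxp3+ and 3.18-fold lower in the CD25+ Foxp3- cells, and these 3 comparisons share the CD25- Foxp3- array. Counted from the lowest, it ranked 172nd, 137th and 99th among the 9516, 9518 and 9542 genes above the floor in both arrays of each comparison. A second Dusp10 probe set gave the same order of CD25- Foxp3- cells over the rest but a smaller size, with 49.8, 46.0 and 44.5 against 93.6, or 1.88-fold, 2.03-fold and 2.11-fold lower.

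Dusp16, which acts on JNK and p38, was lowest where Dusp10 was highest. It read 69.2 in the CD25hi Foxp3+, 95.3 in the CD25lo Foxp3+ and 92.5 in the CD25+ Foxp3- cells, against 44.9 in the CD25- Foxp3- cells, the lowest array and little above the filter. CD25lo Foxp3+ and CD25+ Foxp3- cells were 2.12-fold and 2.06-fold above CD25- Foxp3- cells, and CD25hi Foxp3+ cells 1.54-fold. With 16 added to each intensity before the log, neither of the first 2 differences reached 2-fold. Its second probe set stayed under the filter, at 14.6, 15.8, 14.8 and 16.9 in the same order of populations.

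**Figure D2:**
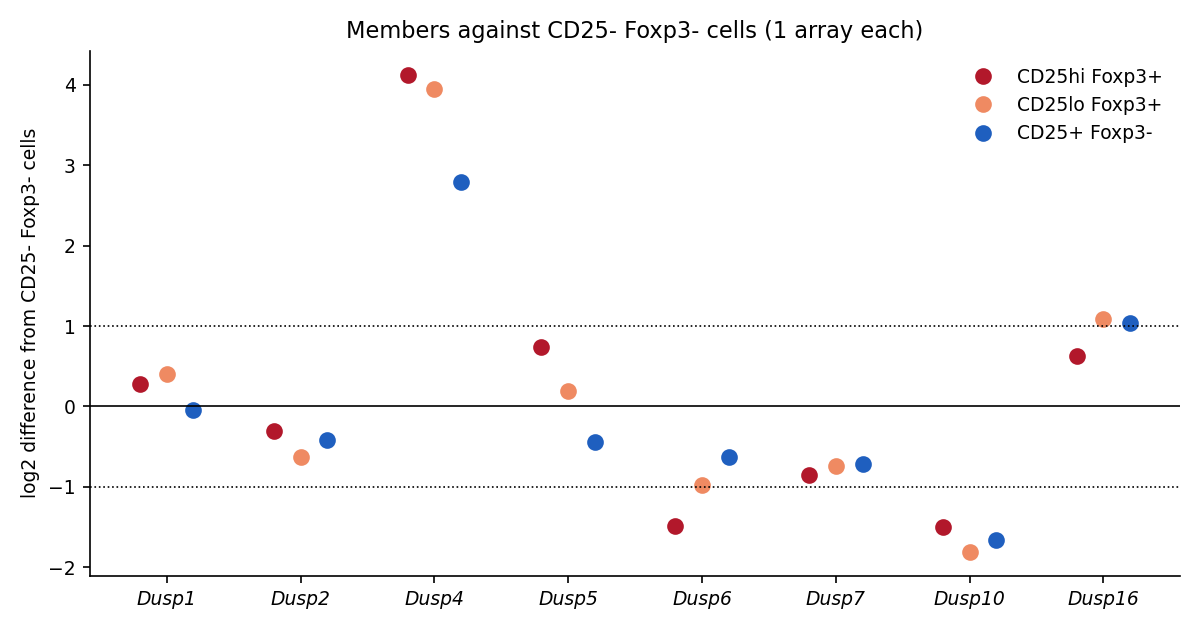
Log2 difference of each member in the CD25hi Foxp3+, CD25lo Foxp3+ and CD25+ Foxp3- cells from the shared CD25- Foxp3- array; dotted lines mark 2-fold. All 3 points of Dusp4 lie far above 0 and all 3 points of Dusp10 lie below the lower dotted line, while Dusp1 stays near 0.

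A gene was called separated where each array of one pair was at least 1.5-fold above each array of the other. So counted, 1 of the 8 members, Dusp4, was higher in both Foxp3+ arrays, against 2.79% of 9625 measured genes. None was lower, against 1.93% of measured genes. Setting the higher CD25 arrays (CD25hi Foxp3+ and CD25+ Foxp3-) against the lower (CD25lo Foxp3+ and CD25- Foxp3-), none of the 8 was higher or lower, with backgrounds of 1.1% and 0.187%. The pairing that follows neither marker also separated none, with backgrounds of 1.45% and 1.6%. Il2ra, the CD25 gene, did not itself meet the rule between the higher and the lower CD25 arrays. That pairing therefore follows the sort labels and not a shared level of Il2ra. Over the 8 members the median log2 difference, mean of the Foxp3+ arrays minus mean of the Foxp3- arrays, was 0.04, against -0.01 over all measured genes, with members from -0.92 for Dusp6 to 2.64 for Dusp4.

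Most of the wide differences lay between CD25- Foxp3- cells and the rest. At 2-fold, CD25hi Foxp3+ cells had 1 member higher than the CD25- Foxp3- cells (Dusp4) and 2 lower (Dusp6 and Dusp10), against 7.09% and 3.74% of measured genes. CD25lo Foxp3+ cells had 2 higher (Dusp4 and Dusp16) and 1 lower (Dusp10), against 9.1% and 6.88%. CD25+ Foxp3- cells had the same 2 higher and the same 1 lower, against 12.1% and 6.43%. Against CD25+ Foxp3- cells, CD25hi Foxp3+ cells had 2 higher (Dusp4 and Dusp5) and CD25lo Foxp3+ cells had 1 (Dusp4), with backgrounds of 4.82% and 5.17%. None was lower there, against 6.84% and 9.04%. No member differed by 2-fold between CD25hi and CD25lo Foxp3+ cells, where 3.21% of measured genes were higher and 2.51% lower in the CD25hi array. Of the 8 members 4 had their highest value in the CD25- Foxp3- cells (Dusp2, Dusp6, Dusp7 and Dusp10), against 30.7% of measured genes.

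**Figure D3:**
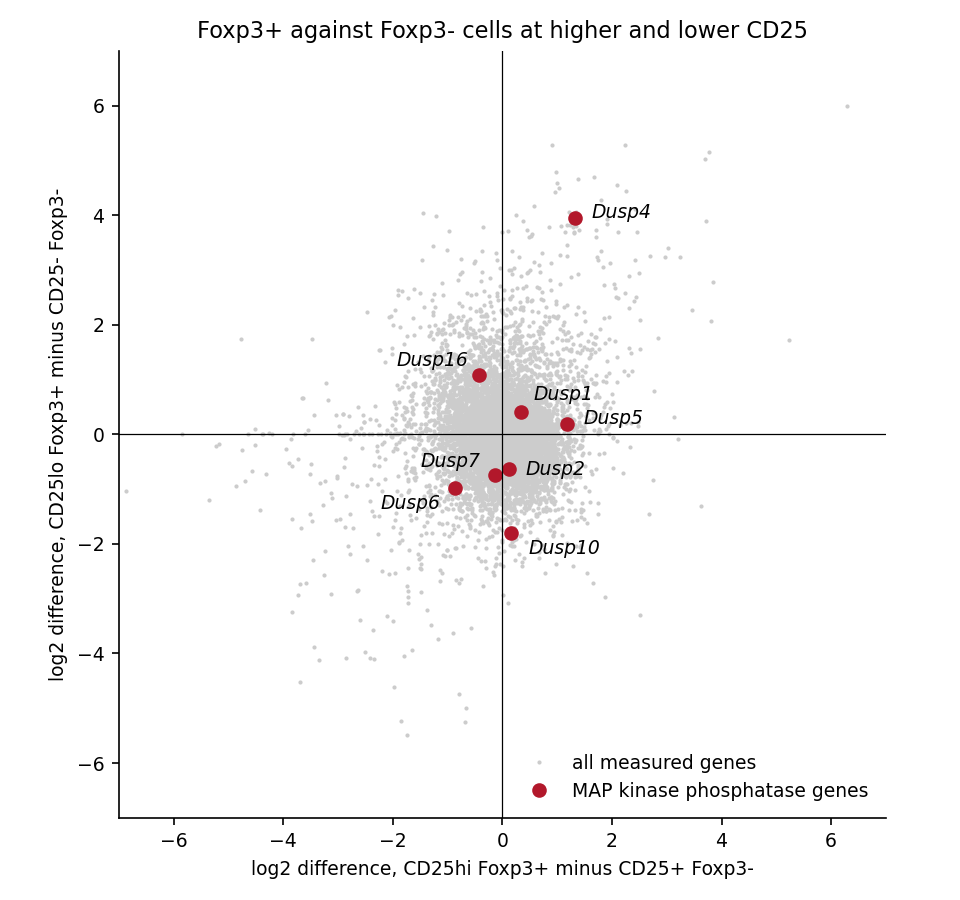
Log2 difference of Foxp3+ from Foxp3- cells for every measured gene (grey) and the 8 members (red). By sort label, the horizontal axis is at higher CD25 (CD25hi Foxp3+ minus CD25+ Foxp3-) and the vertical axis at lower CD25 (CD25lo Foxp3+ minus CD25- Foxp3-). The 2 axes share no array; Dusp4 is positive on both, 2.52-fold and 15.4-fold, and Dusp6 is negative on both.

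Promoters of 7 members, all but Dusp4, were in the RefSeq promoter table (GRCm38.p6). The 250 bases before the start are printed for Dusp6 and Dusp10, both at least 2-fold lower in the CD25hi Foxp3+ than in the CD25- Foxp3- cells, for Dusp5, highest in the CD25hi Foxp3+ cells, and for Dusp1, the flattest member. They lie at chr10:99262981-99263230, plus strand for Dusp6, chr1:184034131-184034380, plus strand for Dusp10, chr19:53528895-53529144, plus strand for Dusp5 and chr17:26508473-26508722, minus strand for Dusp1. Capitals mark the core of the cyclic AMP response element (TGACG on either strand) and CArG boxes, the sites known to bind serum response factor.
Dusp6: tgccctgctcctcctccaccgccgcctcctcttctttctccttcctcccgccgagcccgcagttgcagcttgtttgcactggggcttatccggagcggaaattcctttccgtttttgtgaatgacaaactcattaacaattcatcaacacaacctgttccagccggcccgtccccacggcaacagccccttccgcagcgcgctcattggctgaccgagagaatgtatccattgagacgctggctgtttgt
Dusp10: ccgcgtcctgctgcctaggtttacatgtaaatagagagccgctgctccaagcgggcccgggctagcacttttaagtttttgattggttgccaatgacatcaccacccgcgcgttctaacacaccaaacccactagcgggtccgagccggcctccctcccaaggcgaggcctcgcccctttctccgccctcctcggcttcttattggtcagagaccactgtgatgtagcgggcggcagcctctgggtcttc
Dusp5: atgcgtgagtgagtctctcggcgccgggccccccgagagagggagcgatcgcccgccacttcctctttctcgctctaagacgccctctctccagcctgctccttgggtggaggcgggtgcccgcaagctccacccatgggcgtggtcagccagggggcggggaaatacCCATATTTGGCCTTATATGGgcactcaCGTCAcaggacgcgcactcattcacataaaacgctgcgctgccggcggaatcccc
Dusp1: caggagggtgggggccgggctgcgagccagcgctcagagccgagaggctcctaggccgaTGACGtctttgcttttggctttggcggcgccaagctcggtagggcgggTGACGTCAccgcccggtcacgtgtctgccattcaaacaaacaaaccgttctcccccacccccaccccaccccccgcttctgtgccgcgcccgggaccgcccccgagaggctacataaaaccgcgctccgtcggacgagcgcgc

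Dusp1 had 3 such cores, of which 2 overlap in 1 full element, TGACGTCA. Dusp5 and Dusp16 had 1 each, and the other 4 promoters had none. The core was found in 17.8% of all 32851 promoters of this length and the full element in 1.55%. Dusp5 had 2 adjacent CArG boxes, beginning 82 and 72 bases before the start, a motif found in 1.47% of all promoters. The GC box (GGGCGG, either strand) was in 5 of the 7 promoters and in 32.7% of all. The median GC content was 68.4% for the members and 52.4% for all promoters. The strings TGANTCA (AP-1), CCGGAA (a form of the ETS site), TTCNNNGAA (STAT) and TGTTTAC (a form of the forkhead site) were not found in the 7 windows on either strand. They were in 6.75%, 12.03%, 7.02% and 3.17% of all promoters. Looser forms of these sites were not searched, so their absence is not shown. An E-box (CACGTG) was in those of Dusp1 and Dusp2, against 6.02%. A match is a string of letters and not a shown binding site.

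The rest of the pathway was read from lists of genes by role. The family's further genes Dusp8 and Dusp9 were under the filter in every array. Of the 15 atypical dual specificity phosphatases, which lack the MAP kinase docking domain, 5 were measured and none separated Foxp3+ from Foxp3- arrays. Of all measured genes 2.79% were separated as higher and 1.93% as lower, so this count is not read as a result about the list. Dusp11 read 1925 and 1708 in the CD25hi and CD25lo Foxp3+ cells, 913 in the CD25+ Foxp3- and 2815 in the CD25- Foxp3- cells. Dusp22, whose product restrains T cell receptor signalling, read 76.9 and 44.6 in the CD25hi and CD25lo Foxp3+ cells, against 97.5 and 106.3 in the CD25+ and CD25- Foxp3- cells.

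Of 8 measured MAP kinases the JNK gene Mapk10 alone met the 1.5-fold rule, as lower in both Foxp3+ arrays, against 1.93% of measured genes. It passed the filter only through the CD25+ Foxp3- array, where it read 241. It stood at the floor of 10.1 on each of the Foxp3+ arrays and read 16.04, under the filter, in the CD25- Foxp3- cells, so no difference is read from that count. The p38 gene Mapk14 was nearly flat, with 1865 and 1822 in the CD25hi and CD25lo Foxp3+ cells, against 2036 and 2236 in the CD25+ and CD25- Foxp3- cells. None of 6 MAP kinase kinases, 11 RAF and MAP3 kinases and 10 genes of the RAS switch separated Foxp3+ from Foxp3- arrays. Nor did any of 4 Sprouty and Spred inhibitors, 5 other phosphatases of MAP kinases, 6 scaffolds and 10 MAP kinase substrates. With 2.79% and 1.93% of all measured genes separated as higher and lower, these counts are not read as results about the lists. No MAP kinase kinase differed by 2-fold in any comparison, where between 2.51% and 12.1% of measured genes did in each direction.

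Genes that, as Dusp4, were lowest in the CD25- Foxp3- cells included Map3k8 and Spry1. Unlike Dusp4, neither separated Foxp3+ from Foxp3- arrays. Map3k8, a kinase upstream of ERK, read 313 in the CD25hi Foxp3+, 204 in the CD25lo Foxp3+ and 267 in the CD25+ Foxp3- cells, against 49.5 in the CD25- Foxp3- cells. Spry1, a Sprouty inhibitor of RAS and ERK signalling, read 141, 101.4 and 189 in those 3 populations against 33.9. Rasgrp2, an exchange factor of the RAS family, had the pattern of Dusp10, with 222, 221 and 196 against 863 in the CD25- Foxp3- cells, as had Map3k14, with 128, 82.0 and 111 against 294. Spry2 reached the filter in the CD25+ Foxp3- cells alone, at 39.6, and was at the floor in the other 3 arrays.

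Of 14 measured genes that ERK induces, 1 met the 1.5-fold rule, as higher in both Foxp3+ arrays, against 2.79% of measured genes. This was Etv5, an ETS factor, with 55.3 and 62.7 in the CD25hi and CD25lo Foxp3+ cells against 31.8 in the CD25+ Foxp3- and 12.5 in the CD25- Foxp3- cells. Both Foxp3- values were under the filter of 32.5, so Etv5 passed only through the arrays where it is high. Egr2, a zinc finger factor induced by the T cell receptor, read 975 and 1279 in the Foxp3+ arrays, 1370 in the CD25+ Foxp3- and 432 in the CD25- Foxp3- cells. Myc was higher with CD25 in both Foxp3 states, at 828 in CD25hi against 204 in the CD25lo Foxp3+ cells and 802 in CD25+ against 466 in the CD25- Foxp3- cells. The list had a median log2 difference, Foxp3+ mean minus Foxp3- mean, of 0.05, against -0.01 over all measured genes.

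**Figure D4:**
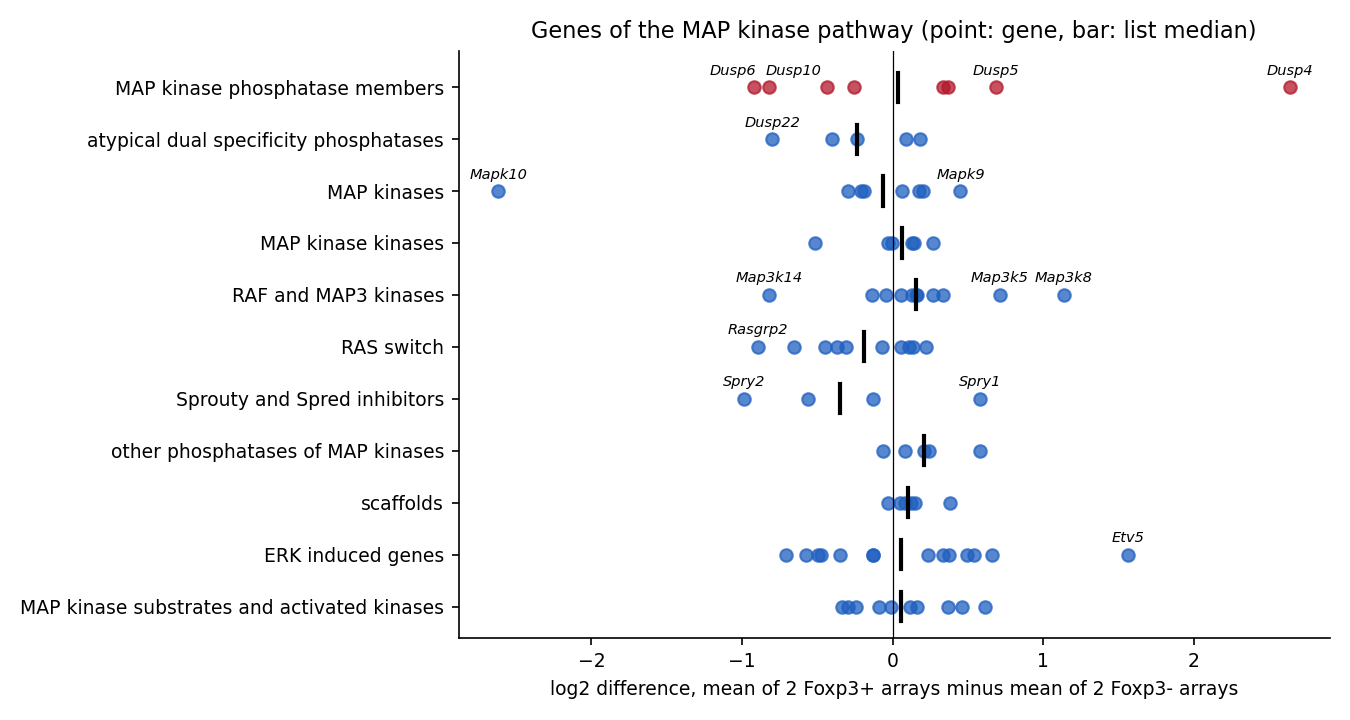
Log2 difference between the mean of the 2 Foxp3+ arrays and the mean of the 2 Foxp3- arrays for each measured gene of the MAP kinase pathway lists (points) with the median of each list (bars). Dusp4 at 2.64 lies farthest to the right, Mapk10, at the floor in the Foxp3+ arrays, farthest to the left, and the list medians lie between -0.35 and 0.21.

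For each member that spanned at least 2-fold, the 3 measured genes with the most similar pattern were found by the root mean square difference of log2 values, each centred on its own mean over the 4 arrays. With 4 points, many genes can match a pattern, and the likeness is a description. For Dusp4 they were Tnfrsf4, which encodes the costimulatory receptor OX40, Gucy1a1, a guanylate cyclase subunit, and Ikzf4, which encodes the Ikaros family factor Eos, with differences of 0.07, 0.11 and 0.15. Tnfrsf4 read 3929 and 3087 in the Foxp3+ arrays, 1539 in the CD25+ Foxp3- and 221 in the CD25- Foxp3- cells. For Dusp10 they were Rnf122, Pik3r5, a regulatory subunit of PI3 kinase gamma, and Setd4, with differences of 0.07, 0.09 and 0.09. Pik3r5 read 272, 212 and 242 against 875 in the CD25- Foxp3- cells. Rnf122 reached the filter in the CD25- Foxp3- cells alone, at 38.3, and was between 9.88 and 14.3 in the other arrays.

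For Dusp5 the nearest were Col15a1, Ilvbl and Map4k5 (0.05, 0.06 and 0.08), of which Col15a1 reached the filter in the CD25hi Foxp3+ cells alone, at 33.4. For Dusp6 they were Mirt1, Pld4 and Prtn3 (0.06, 0.10 and 0.12), all between 10.8 and 47.5 in every array and so near the floor. For Dusp16 they were Pdcl, Fam174a and Prr11 (0.01, 0.03 and 0.03).

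**Figure D5:**
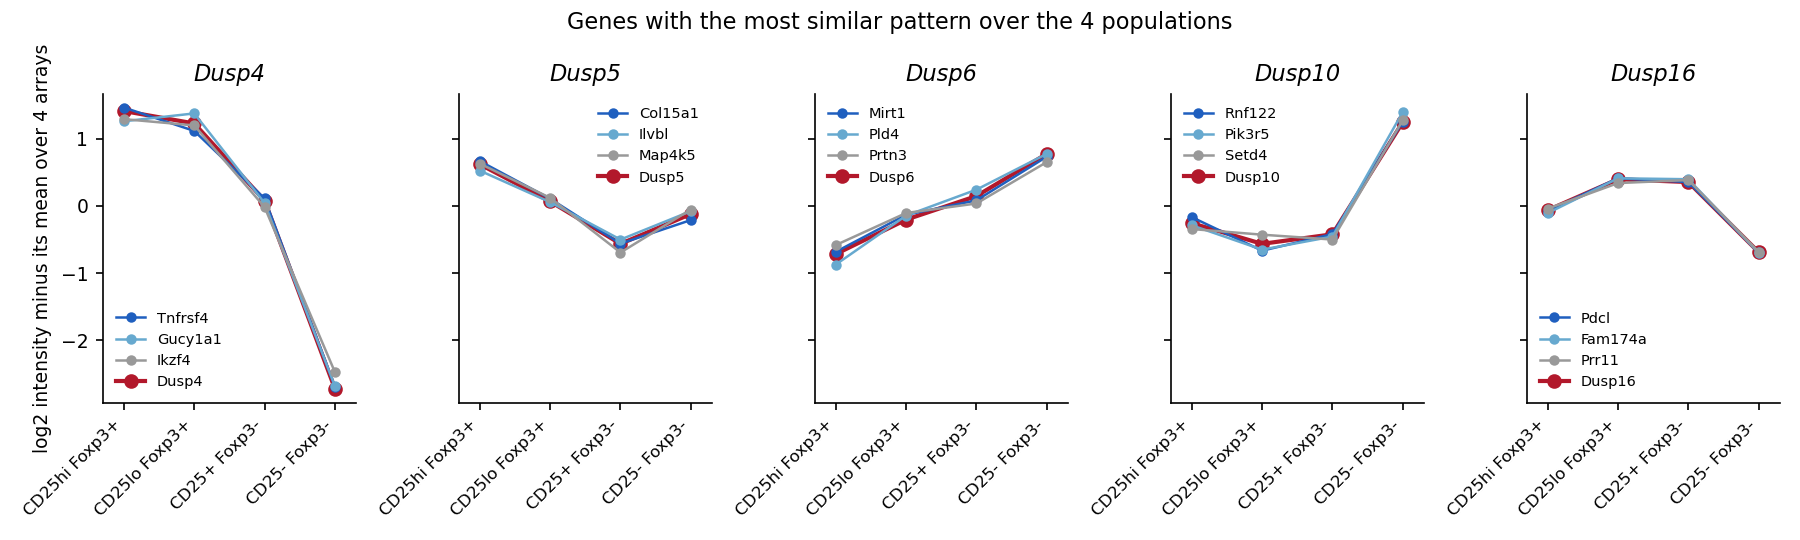
Log2 intensity minus its mean over the 4 arrays for the 5 members that spanned at least 2-fold (red) and the 3 genes most like each, across the 4 populations; values under the floor of 10.1 were set to it. Dusp4 and its neighbours are lowest in the CD25- Foxp3- array, where Dusp10 and its neighbours peak.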

How the data were processed

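Expression was measured on 4 Affymetrix Mouse Genome 430 2.0 arrays, 1 per sorted population, and samples were grouped by their titles. Per the labels, total RNA went through 2 cycles of in vitro amplification. The deposited table holds 1 linear intensity per probe set, a unit inferred from the numbers, since the authors' probe summary, background correction and normalization are not given in the sources used here. Precision is limited by the number of arrays.

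The platform annotation, an older release, named the genes: 64 controls were left out, 34945 had 1 gene, 932 several and 9160 none listed. Of those with 1 gene, 34741 matched the RefSeq gene table (GRCm38.p6) by Entrez identifier, which changed no symbol. Intensities under the 40th percentile (10.1) were set to it, genes had to reach the 60th percentile (32.5) in 1 array, and the probe set with the highest mean log2 intensity stood for its gene, which left 9625 measured genes. Folds against an array at the floor are bounds. A pairing counted at a gap of 1.5-fold and a comparison of 2 arrays at 2-fold, with no test, since no group had replicates. Levels of different probe sets were not compared. Alternatives changed the floor, filter, scaling, log scale, probe set and fold.

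The text names all 8 members, the 3 genes nearest in pattern to each member spanning 2-fold, and pathway genes with the widest gap or spread in their list; Fos, Mapk14 and Dusp22 were chosen after their values were seen. The members, lists and settings were chosen with earlier results of these data known, and the promoter motifs after the sequences were read. Python 3.11.15, pandas 2.3.3, NumPy 2.4.6 and Matplotlib 3.10.9 were used.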

Additional observations from a re-analysis of the deposited data

Results flagged for a closer look

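The effect of one marker ran in opposite directions at the 2 sorted states of the other for 4 members. The share of all measured genes that did so was not counted, so the number is not read as a trait of the members. With 1 array per population, none of these differences was tested, and each value below in log2 is the difference between the 2 effects, a number that is the same for either marker. Dusp10 had the widest, 1.97. It was 1.12-fold higher in the CD25hi Foxp3+ than in the CD25+ Foxp3- cells but 3.51-fold lower in the CD25lo Foxp3+ than in the CD25- Foxp3- cells, and 1.24-fold higher in CD25hi than in the CD25lo Foxp3+ cells but 3.18-fold lower in CD25+ than in the CD25- Foxp3- cells. Dusp16 had -1.50, being 1.34-fold lower in the CD25hi Foxp3+ than in the CD25+ Foxp3- cells and 2.12-fold higher in the CD25lo Foxp3+ than in the CD25- Foxp3- cells. By CD25 it was 1.38-fold lower in CD25hi than in the CD25lo Foxp3+ cells and 2.06-fold higher in CD25+ than in the CD25- Foxp3- cells. Dusp5 had 0.996 for CD25 alone, being 1.47-fold higher in CD25hi than in the CD25lo Foxp3+ cells and 1.36-fold lower in CD25+ than in the CD25- Foxp3- cells. Dusp2 had 0.74. It was 1.08-fold higher in the CD25hi Foxp3+ than in the CD25+ Foxp3- cells and 1.55-fold lower in the CD25lo Foxp3+ than in the CD25- Foxp3- cells, and 1.249-fold higher in CD25hi than in the CD25lo Foxp3+ cells but 1.34-fold lower in CD25+ than in the CD25- Foxp3- cells.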

How the results depend on the processing

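No member changed the direction of its Foxp3 difference under another floor, filter, scaling, log scale or choice of probe set, and each moved by less than 1.5-fold. Several of these settings could not move it. All members read above each floor tried in every array, and the other filters dropped no member and changed no value. For the 5 members with 1 probe set, the choice of probe set was fixed. Dusp4 ranged from 2.55 to 2.65, Dusp6 from -0.92 to -0.81 and Dusp10 from -0.82 to -0.63 in log2. Dusp7 and Dusp16 gave no value when probe sets with the suffixes _s_at, _x_at and _a_at were left out, since they have no other that passed. Counts of members moved by over 1.5 times only with the size asked for, but Dusp16 lost its 2-fold difference from CD25- Foxp3- cells in both the CD25lo Foxp3+ and CD25+ Foxp3- cells on log2(value + 16), which left 2 members in each. At the smaller of the other gaps tried, the Foxp3 pairing separated 2, Dusp4 higher and Dusp6 lower, and the pairing by neither marker 1, Dusp16. At 1.5-fold the members apart from CD25- Foxp3- cells numbered 6 in CD25hi Foxp3+, 6 in CD25lo Foxp3+ and 5 in CD25+ Foxp3- cells, and CD25lo Foxp3+ differed from CD25+ Foxp3- cells in 2. At 3-fold, CD25hi Foxp3+ cells differed from CD25- Foxp3- cells in 1, Dusp4, and both Foxp3+ populations from CD25+ Foxp3- cells in 0. Shares of all measured genes at these other sizes were not counted, so these counts have no background and are not read as a result about the members. No replicate could be left out, since each population has 1 array. Dusp16, at 44.9 to 95.3, lies nearest the filter.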
